A study of Mus musculus with 4 samples.

Results

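The mitochondrial ribosome is built from proteins that are encoded in the nucleus, and the 77 genes of these proteins described here were picked from the 39186 genes of the table by their names alone, Mrps or Mrpl followed by a number, with pseudogenes left out. They were measured by RNA sequencing of LSK cells sorted from mouse fetal liver at mid-gestation, the Lin-, Sca-1+, c-Kit+ fraction that holds the blood stem and progenitor cells. The samples were 2 Pich-KO and 2 Pich-WT libraries of the C57BL/6 strain. The knockout carries a small TALEN-made deletion near the start of the coding sequence of Ercc6l, the X-linked gene of the DNA translocase PICH. It was made in mice and not only in blood cells, so the liver around the LSK cells carried it too. The comparison of the groups asks how the transcriptome of these cells differed when PICH was absent. Nothing in the labels says that the samples of a group came from separate fetuses, so p-values measure only the spread between these samples. Reads on sex-linked genes, given at the end, differed between the wild types, which therefore did not come from the same animal, while the spread of the knockouts may be technical.

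Mitochondria keep a small genome of their own, whose messages code for core subunits of the respiratory chain and of the ATP synthase. These messages are read inside the organelle by a dedicated ribosome, whose RNAs are made from the mitochondrial genome and whose proteins are made in the cytosol and imported. The small subunit binds the message and decodes it, and the large subunit joins the amino acids and guides the new chain to the inner membrane. Some of the proteins have counterparts in bacterial ribosomes, and others exist only in mitochondria. Blood stem cells are known for low mitochondrial activity at rest, and mitochondrial translation is known to be needed as progenitors divide and differentiate.

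Markers of other cell types were checked first, because a clean LSK sort would hold few mature cells. The study's lineage stain included antibodies to a red-cell and to a granulocyte antigen, and yet the wild types held many erythroid reads, with Hba-a1 at normalized counts of 101298 and 74642 against 16798 and 18762 in the knockouts. These reads went partly against the LSK sort, in both groups but more so in the wild types. Each value below thus comes from a sample with such reads. Here and throughout, a gene rose or fell where it passed an adjusted p of 0.05 by limma on log2(normalized count + 1), the normalized count being reads divided by a size factor of the sample. All 10 macrophage markers fell, from a sum of 3417 and 3688 RPM, reads scaled to 1000000 reads on genes, in the wild types to 508 and 433 in the knockouts. Of 10 erythroid markers 9 fell, from 12010 and 8885 to 1908 and 2005, and of 8 hepatocyte markers 5 fell, from 290 and 269 to 184 and 155. Of 8 neutrophil granule genes Mpo, Prtn3 and Ctsg rose and 0 fell, the sum going from 974 and 1192 to 3877 and 7197. The log2 fold changes of this list were mixed, positive for 5 and negative for 3, with Ltf the lowest at -0.86. Of the 8 LSK markers, Ly6a rose, Gata2, Hlf, Mecom and Mycn fell, and Kit, Cd34 and Meis1 did not pass, with sums of 1466 and 907 in the knockouts against 1226 and 1405. None of these markers was at 0 in all samples. The part of these shifts in the results on the members was not tested.

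As a group, the mitochondrial ribosomal protein genes were higher in Pich-KO than in Pich-WT. By limma, 37 of the 77 rose, none fell, and 40 did not pass, where over all genes tested 7.58% rose and 9.60% fell. Highly expressed genes were called more often, and the members also stand beside the 6141 genes with a mean normalized count from 364 to 2741, the range of the members themselves, of which 21.7% rose. The median log2 fold change of the members was 0.45, a ratio of 1.37, against 0.02 over all genes tested and 0.06 over the genes in that range. The middle part of the members, from the lower to the upper quartile, ran from 0.32 to 0.64 on the log2 scale. The log2 fold change was positive for 76 members and negative for Mrpl52 alone, while 51% of all genes tested and 54.3% of those in the range had a positive value.

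Leaving out a single library ended most of these calls, with 5 members past the test without Pich-KO 1 and 0 without any of the other 3 libraries, and limma without a variance trend also gave 0. The direction did not change, with a median log2 fold change of 0.38 to 0.57 when a library was left out.

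The reads of the 77 genes together came to 6254 RPM in Pich-KO 1 and 7061 in Pich-KO 2, against 4912 in Pich-WT 1 and 4868 in Pich-WT 2. Both knockout samples thus lay above both wild types, and the mean rose from 4890 ± 31 to 6658 ± 571 RPM (SD, n = 2), a ratio of 1.36. An exact two-sided permutation test of this sum gave p = 0.333, which is the smallest value that 2 samples against 2 allow. In a sorted bulk sample, a change in which cells are present and a change of the RNA in each cell cannot be told apart.

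**Figure D1:**
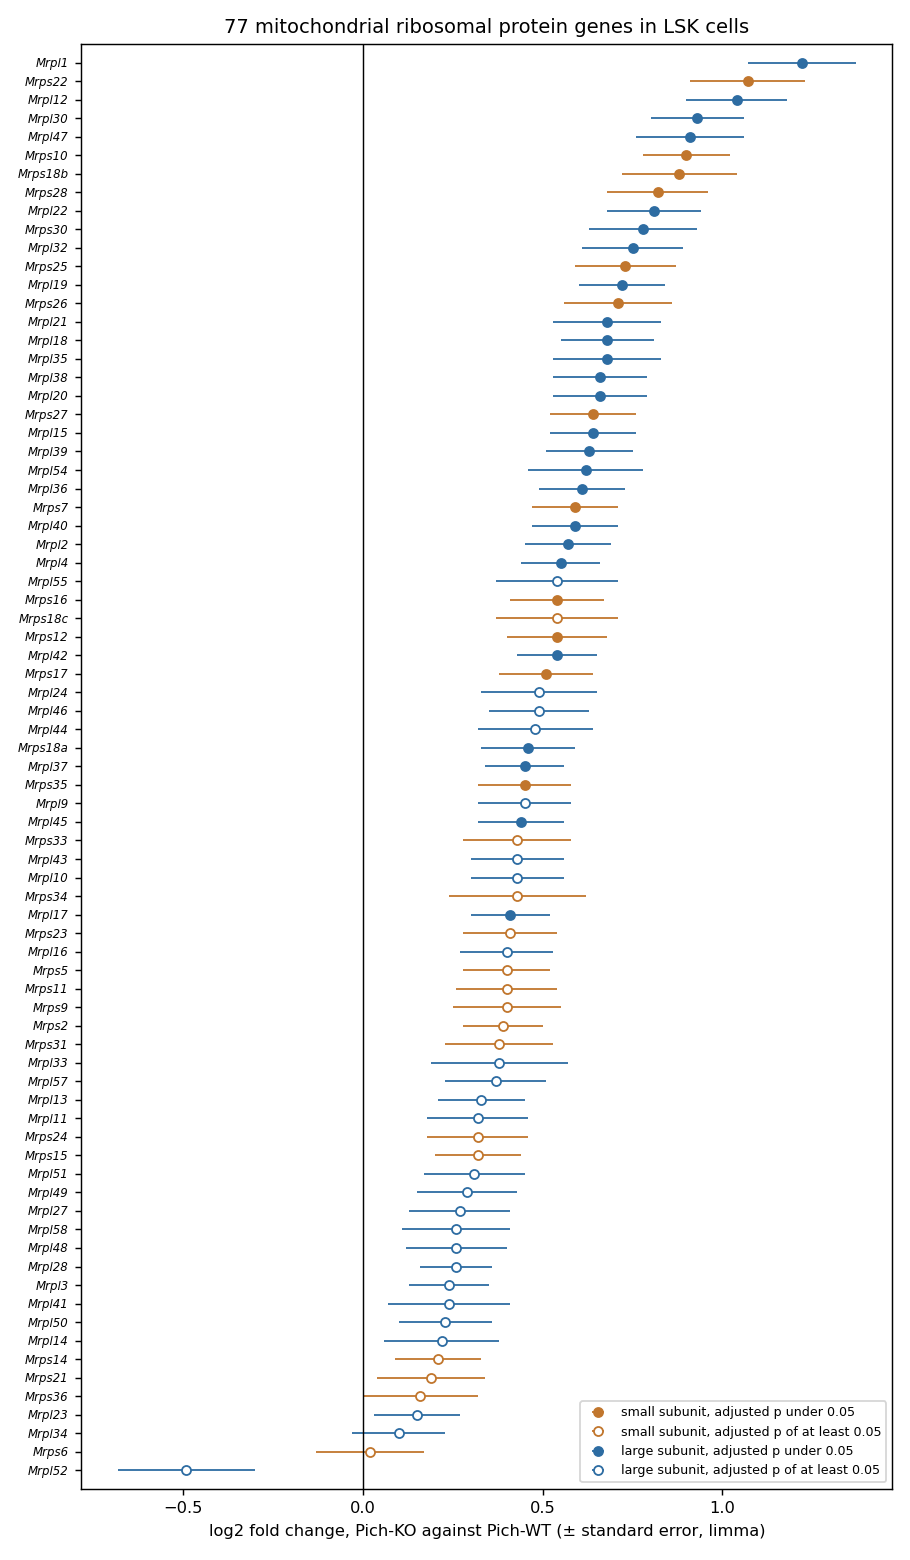
Log2 fold change of each of the 77 genes, Pich-KO against Pich-WT (x axis, points, with bars for ± 1 standard error from limma), ordered from largest to smallest. Filled points passed an adjusted p of 0.05, orange marks the small and blue the large subunit, and the 37 filled points all lie to the right of 0, while Mrpl52 at -0.49 is open and stands apart on the left.

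The spread within the groups was uneven, and most members had groups that did not overlap. In 70 of the 77 members both knockout values lay above both wild-type values, against 28.9% of all genes tested and 43.6% of the genes in the range of the members. In 1, Mrpl52, both lay below, and in the remaining 6, Mrpl41, Mrpl14, Mrps21, Mrps36, Mrpl34 and Mrps6, the groups overlapped. Within the knockout group, Pich-KO 2 was above Pich-KO 1 in 70 members, with a median log2 difference of 0.20, where the genes in the range had a median of -0.02. Within the wild-type group, Pich-WT 1 was above Pich-WT 2 in 62 members, by a median of 0.08 against 0.07 for the genes in the range. The median standard error of a member's log2 fold change was 0.14. No member was near the limit of detection, since reads ran from 292 to 3088 over all members and samples.

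**Figure D2:**
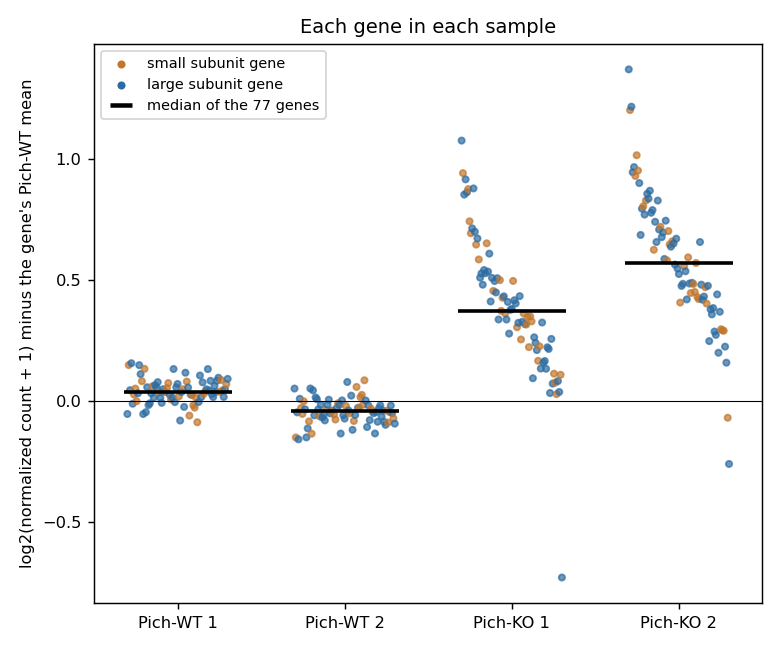
Each point is 1 of the 77 genes in 1 sample, as log2(normalized count + 1) minus that gene's mean in Pich-WT (y axis), spread sideways in the order of its fold change, with a black bar for the median of the 77. The wild-type points lie close to 0, most knockout points lie above them, and the points of Pich-KO 2 lie higher than those of Pich-KO 1 in 70 genes.

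Of the 27 genes counted in the small subunit by name and known place, 12 rose and none fell. Their median log2 fold change was 0.43, with positive values for all 27. The largest was that of Mrps22 (ENSMUSG00000032459, chr9:98588730-98601660 on GRCm38, minus strand), which codes for a protein found only in mitochondrial ribosomes. Mrps22 had normalized counts of 1137 and 1362 in Pich-KO 1 and 2 and of 656 and 533 in Pich-WT 1 and 2. Both knockout values were above both wild types, and the log2 fold change was 1.07 ± 0.16 (SE, limma adjusted p = 0.00301). Mrps10, the counterpart of the bacterial S10 protein, stood at 1745 and 1812 against 969 and 932. Its knockout samples were nearly equal, and it rose by 0.90 ± 0.12 (SE) on the log2 scale (limma adjusted p = 0.00135).

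Mammals have 3 paralogs of the bacterial S18 protein, and only Mrps18b and Mrps18c sit in the small subunit, since Mrps18a belongs to the large one. In the comparison by origin further on, Mrps18c alone was counted as the bacterial counterpart. Mrps18b had counts of 806 and 974 in the knockout and of 499 and 464 in the wild type, a log2 fold change of 0.88 ± 0.16 (SE, limma adjusted p = 0.00618). Mrps18c had counts of 498 and 626 against 399 and 370, and its 0.54 ± 0.17 (SE) did not pass (limma adjusted p = 0.0749). Mrps18a had counts of 1321 and 1487 against 1058 and 977, and its log2 fold change of 0.46 passed (limma adjusted p = 0.0422). None of the 3 genes had overlapping groups.

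Mrps12 and Mrps7 lie close to the site where codons are decoded, the first at the decoding centre itself. Mrps12 had counts of 1158 and 1349 in the knockout against 907 and 817, and rose by 0.54 on the log2 scale (limma adjusted p = 0.0323). Mrps7 had counts of 2187 and 2628 against 1635 and 1555, and rose by 0.59 (limma adjusted p = 0.0137). Mrps27, which carries pentatricopeptide repeats of the kind that bind RNA, was at 1310 and 1286 against 870 and 798 and rose by 0.64 (limma adjusted p = 0.00982). Mrps17 and Mrps35, with log2 fold changes of 0.51 and 0.45, were among the smallest changes of the subunit to pass (limma adjusted p = 0.0355 and 0.0445). Mrps35 was the member just inside the threshold, and Mrps5, at 0.40 with a limma adjusted p of 0.0506, was the member just outside it.

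Several other small subunit genes did not pass. Mrps2, at 1496 and 1582 against 1185 and 1162, had a log2 fold change of 0.39 (limma adjusted p = 0.054). Mrps15 had 0.32 and Mrps34 had 0.43 (limma adjusted p = 0.122 and 0.185). Mrps36, a protein that has since been placed in the alpha-ketoglutarate dehydrogenase complex, was still counted here in the small subunit. It had counts of 557 and 668 against 563 and 529 and a log2 fold change of 0.16 ± 0.16 (SE). Mrps6, at 604 and 534 in the knockout and 588 and 533 in the wild type, had interleaved groups and a log2 fold change of 0.02 ± 0.15 (SE), the smallest of the subunit.

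Of the 50 genes of the large subunit, 25 rose and none fell, with a median log2 fold change of 0.47 and positive values for 49. These 50 include Mrps30 and Mrps18a, which were named for the small subunit but sit in the large one. Mrpl1 (ENSMUSG00000029486, chr5:96209493-96266727 on GRCm38, plus strand) had the largest change of all members. Its product is the counterpart of bacterial L1, whose mobile stalk handles the tRNA that leaves the ribosome. Mrpl1 had counts of 1158 and 1420 in the knockout against 529 and 569 in the wild type. With a log2 fold change of 1.22 ± 0.15 (SE), its knockout level was 2.33 times the wild-type level (limma adjusted p = 0.00113).

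The stalk on the other side of the subunit, where the elongation factors bind, is made of Mrpl12 on a base of Mrpl10 and Mrpl11. Mrpl12 had counts of 2082 and 2678 in the knockout against 1189 and 1116, a log2 fold change of 1.04 ± 0.14 (SE, limma adjusted p = 0.00194). Mrpl10 had 1279 and 1267 against 1027 and 872, and its 0.43 did not pass (limma adjusted p = 0.0663). Mrpl11 had 984 and 1147 against 897 and 805, and its 0.32 did not pass either (limma adjusted p = 0.181). The difference between Mrpl12 and its partners was not tested.

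The other large changes of the subunit were those of Mrpl30 and of Mrpl47, the latter the counterpart of bacterial L29 at the exit of the peptide tunnel. Mrpl30 was at 2177 and 2222 against 1286 and 1034, a log2 fold change of 0.93 (limma adjusted p = 0.00242). Mrpl47 was at 640 and 688 against 349 and 354, a log2 fold change of 0.91 (limma adjusted p = 0.00456). Mrps30, a protein found only in mitochondria, was at 1659 and 1452 against 1000 and 813 and rose by 0.78 (limma adjusted p = 0.00831). It was 1 of the few members with Pich-KO 1 above Pich-KO 2.

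Mrpl45, which lines the exit of the tunnel and anchors the ribosome to the inner membrane, had counts of 1511 and 1598 against 1172 and 1112. It rose by 0.44 on the log2 scale (limma adjusted p = 0.0348). Mrpl37 and Mrpl17, with 0.45 and 0.41, were the other small changes to pass (limma adjusted p = 0.0294 and 0.0417). Mrpl44, which resembles ribonuclease III, had counts of 976 and 1281 against 802 and 806 and a log2 fold change of 0.48 that did not pass (limma adjusted p = 0.0833). Mrpl3 had 0.24 and Mrpl58, a peptidyl-tRNA hydrolase built into the subunit, had 0.26, and neither passed (limma adjusted p = 0.187 and 0.305). Mrpl41 had a log2 fold change of 0.24 with overlapping groups (limma adjusted p = 0.426).

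Mrpl52 (ENSMUSG00000010406, chr14:54426909-54429756 on GRCm38, plus strand) was the exception. Its normalized counts were 413 in Pich-KO 1 and 572 in Pich-KO 2, against 730 in Pich-WT 1 and 642 in Pich-WT 2. All knockout values were below all wild-type values, but the log2 fold change of -0.49 ± 0.19 (SE) did not pass (limma adjusted p = 0.131). Mrpl52 is found only in mitochondrial ribosomes and shares no exon bases with another gene of the annotation used here.

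Proteins with a bacterial counterpart and proteins found only in mitochondria gave similar values. Of the 46 with a bacterial counterpart, 22 rose, with a median log2 fold change of 0.50. Of the 31 classed as specific to mitochondria, which include Mrps18a, Mrps18b and Mrps36, 15 rose, with a median of 0.45. The sum over the small subunit was 1861 and 2088 RPM in the knockout against 1454 and 1451. The sum over the large subunit was 4393 and 4973 against 3458 and 3417. Both ratios of group means came to 1.36.

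Per length of the gene model, the members differed among themselves far more than they differed between the groups. The mean level over the 4 samples ran from 108 normalized counts per kilobase for Mrpl48 to 2053 for Mrpl28, with a median of 478. Mrpl28, Mrpl36, Mrpl18, Mrpl54 and Mrpl34 were the 5 highest. Mrpl28 stood at 2185 and 2285 per kilobase in the knockout against 1894 and 1849, and its log2 fold change of 0.26 did not pass (limma adjusted p = 0.126). Mrpl36, at 1966 and 2259 per kilobase against 1459 and 1307, rose by 0.61 on the log2 scale (limma adjusted p = 0.0106). Mrpl34 was at 1599 and 1740 against 1612 and 1506 per kilobase, with a log2 fold change of 0.10 and overlapping groups.

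Mrpl18 and Mrpl54 rose, with log2 fold changes of 0.68 and 0.62 (limma adjusted p = 0.0085 and 0.0301). Across the 77 genes, the order of the levels per kilobase was nearly the same in both groups, with a Spearman rho of 0.97. The rho of the log2 fold change with the level per kilobase was -0.06, and with the length 0.16. These are descriptions across genes of the same 4 libraries, and genes are not independent replicates. The length is that of all exons joined, so genes with long, rarely used exons have a level per kilobase that is too low.

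**Figure D3:**
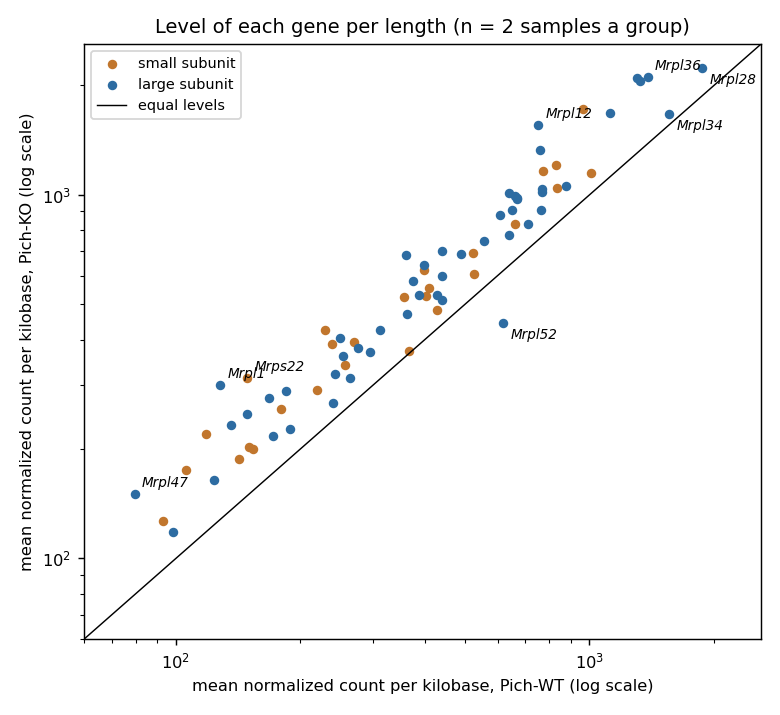
Mean normalized count per kilobase of each gene in Pich-KO (y axis) against Pich-WT (x axis), both on log scales, n = 2 samples a group, with a line for equal levels. All points but that of Mrpl52 lie on or above the line, at every level from Mrpl47 at the low end to Mrpl28 at the high end.

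The genes are scattered over 17 chromosomes, with 11 of them on chromosome 11. In GENCODE M21, a start site within 1000 bases of that of a protein-coding gene on the other strand, with the pair facing apart and not overlapping, was found for 18 members, or 23.4%, against 7.16% of the 20445 protein-coding genes of the table. Mrps12 is paired in this way with Sars2, the mitochondrial seryl-tRNA synthetase, at 172 bases. Mrpl49 starts 59 bases from Fau, which codes for a protein of the cytosolic ribosome, and Mrps27 starts 81 bases from Ptcd2. Exon bases shared with another gene were found for 32 members, 22 of them with a protein-coding gene. Reads there cannot be given to either gene where strand was not used, or where both genes lie on the same strand. Mrps25 shared 69.8% of its exon bases with Nr2c2 and Mrps34 63.4% with Mapk8ip3, so their values are uncertain. Among overlaps on the same strand, Mrps34 shared 37% with Nme3, Mrps18c 23.2% with Gm43511 and Mrps6 19.9% with Gm49711. Mrpl47 shared 13.9% with Ndufb5 and 10.2% with Actl6a, each a gene with higher counts than its own in every sample. Mrpl18 shared 10.1% with Tcp1, also a gene with more reads than its own. Mrpl12 and Mrps18b shared 13.1% and 30.5% with RNA genes of few reads. Mrpl46 and Mrps11, both members, share 173 bases, and Mrps22, Mrpl1 and Mrpl52 share none.

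Of the 77 genes, 68 had a promoter in the RefSeq set for GRCm38.p6, which spans 250 bases before to 50 after the start of a gene in RefSeq. That start lay within 100 bases of the start in the deposited table for 50 of the 68. They were searched on both strands for short motifs linked to genes of mitochondria. CCGGAAG, a core of the ETS family to which GABPA belongs, was found in 25, or 36.8%, against 9.93% of the 27025 genes with a promoter. GCGCATGC, from the site of NRF1, was in 8, or 11.8%, against 3.05%. AAGATGGC, from the site of YY1, was in 12, or 17.6%, against 3.19%. CACGTG, the E-box that MYC and MAX bind, was in 5, or 7.35%, against 8.09%, and TATAAA, the TATA box, in 5, or 7.35%, against 15.7%. These shares count matches anywhere in the window, also in the 50 bases after the start, while the stretches below hold only bases before it. The 27025 genes were not matched to the members in level and include genes not expressed here. Whether other genes of similar level hold these letters as often was not tested. Such matches are letters in a window and not sites shown to be bound.

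The stretches below run on the strand of the gene and end at the base before its RefSeq start, and they are shown because they hold these motifs in genes that rose, or, for Mrpl1, none of them in the gene with the largest change. Capitals mark the motif on either strand, the longer run in Mrpl39 being 2 overlapping matches to the NRF1 letters.
Mrps22, chr9:98601680-98601705, minus strand: caaaaacctctcgagCCGGAAGttgc
Mrpl22, chr11:58171596-58171663, plus strand: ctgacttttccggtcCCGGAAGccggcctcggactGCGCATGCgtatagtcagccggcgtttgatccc
Mrps27, chr13:99344723-99344785, plus strand: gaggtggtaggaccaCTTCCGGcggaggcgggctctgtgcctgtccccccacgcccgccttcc
Mrpl39, chr16:84735245-84735384, minus strand: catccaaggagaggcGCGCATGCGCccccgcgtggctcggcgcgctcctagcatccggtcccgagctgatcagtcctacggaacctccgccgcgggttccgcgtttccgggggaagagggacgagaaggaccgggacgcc
Mrpl36, chr13:73330951-73331008, plus strand: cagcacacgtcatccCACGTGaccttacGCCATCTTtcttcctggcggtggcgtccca
Mrpl1, chr5:96210015-96210114, plus strand: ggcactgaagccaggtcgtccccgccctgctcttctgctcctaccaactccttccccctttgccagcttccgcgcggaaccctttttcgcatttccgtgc

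The RefSeq start lies 622 bases inside the gene as the deposited table gives it for Mrpl1, 498 bases for Mrpl39 and 2496 bases for Mrpl36, and within 19 bases of the table's start for the other 3. Counted from the RefSeq start, the ETS letters began 11 bases before the start in Mrps22 and 53 bases before it in Mrpl22, which also held the NRF1 letters. In Mrpl36 the E-box and the YY1 letters were close together, 43 and 30 bases before the start. Mrpl22 rose by 0.81 and Mrpl39 by 0.63 on the log2 scale (limma adjusted p = 0.0044 and 0.00924). Mrpl1 and Mrpl12, with larger changes, had none of the 5 motifs in the 250 bases before the RefSeq start, and the bases before the table's start of Mrpl1 were not searched. Members that did not pass held motif letters too. The ETS letters began 47 bases before the RefSeq start in Mrpl52 and 37 bases before it in Mrpl34. Their log2 fold changes were -0.49 and 0.10. Whether the motifs went with the changes was not tested.

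The factors that these motifs are named for moved in different ways. Of 12 regulators of mitochondrial biogenesis, 5 rose and 1 fell, with a median log2 fold change of 0.13. Gabpa, the DNA-binding part of the ETS factor, had counts of 1168 and 1200 in the knockout against 514 and 523 and rose by 1.19 (limma adjusted p = 0.000669). Myc was at 8315 and 9910 against 4226 and 3854 and rose by 1.17 (limma adjusted p = 0.000294), and Gabpb2, Max and the coactivator Pprc1 were the other 3 that rose. Mycn fell by 1.08 on the log2 scale (limma adjusted p = 0.0157). Nrf1 and Yy1, at 0.17 and -0.10, did not pass, nor did Ppargc1a, whose log2 fold change of -1.42 was the lowest of the list and rested on few reads (limma adjusted p = 0.0832). A link between these factors and the members was not tested.

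Other parts of the mitochondrial translation system were counted in the same way. Of 5 subunits whose names do not follow the pattern, Gadd45gip1 and Ptcd3 rose, by 0.68 and 0.66, and Aurkaip1 had the lowest value, 0.31, which did not pass. Of 29 genes for assembly of the ribosome and care of its RNAs, 8 rose and 1 fell, with a median of 0.29. Slirp had the largest log2 fold change, 0.97. Grsf1, an RNA-binding protein of the mitochondrial RNA granules, was the 1 that fell, with counts of 834 and 205 in the knockout against 1785 and 1800 (log2 fold change -2.11, limma adjusted p = 0.0284), and its knockout samples differed widely from each other.

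Of 16 translation factors and their helpers, 6 rose and none fell, with a median log2 fold change of 0.48. Tufm, the factor that brings tRNAs to the ribosome, was at 4390 and 4522 in the knockout against 2720 and 2549, a rise of 0.76 (limma adjusted p = 0.00113). Gfm1, the factor that moves the ribosome along, was at 1925 and 2071 against 1103 and 1162, a rise of 0.82 (limma adjusted p = 0.00207). The extremes of the list were Mss51 at 1.13, on few reads, and Mtif2 at -0.11, and neither passed.

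The RNAs made inside the organelle followed another pattern across samples. The 13 mitochondrial mRNAs had a positive median of 0.60, but only mt-Co3, mt-Atp6 and mt-Co2 rose. These 3 had at most 324 normalized counts in a sample, where mt-Co1 had at least 8987. The others above the median, mt-Nd3, mt-Atp8 and mt-Nd4l, had at most 20 reads in a sample. The groups overlapped in 9 of the 13. Both knockout values lay above both wild types in 30.8% of the 13, against 28.9% of all genes tested. The sum of the 13 was 1990 RPM in Pich-KO 1 and 4252 in Pich-KO 2, against 2165 and 2746 in the wild types. Thus 1 knockout sample was the lowest of the 4 and the other the highest. The log2 fold changes ran from 1.77 for mt-Co3 to 0.05 for mt-Nd1. The 2 mitochondrial rRNAs, mt-Rnr1 at 0.52 and mt-Rnr2 at 0.61, did not pass.

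Of 20 genes that copy, transcribe and process the mitochondrial genome, 9 rose and none fell, with a median log2 fold change of 0.50. Mterf1a had the largest, 1.80, and Polg, the DNA polymerase, the lowest, -0.24, which did not pass. Of 30 genes of protein import, the route by which the members' products reach the organelle, 21 rose and none fell, with a median of 0.61. The chaperonins Hspd1 and Hspe1 rose by 1.24 and 1.41. The extremes of that list were Tomm6, at 1.41 on at most 4 reads in a sample, and Timm17b, at -0.11, and neither passed. Of 82 genes for proteins of the cytosolic ribosome, 62 rose and none fell, with a median of 0.49, from Rpl24 at 1.41 to Rpl39l at -0.67, the latter not past the test. The size of the change in the members was thus close to that of the cytosolic ribosome, and the difference between the lists was not tested.

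**Figure D4:**
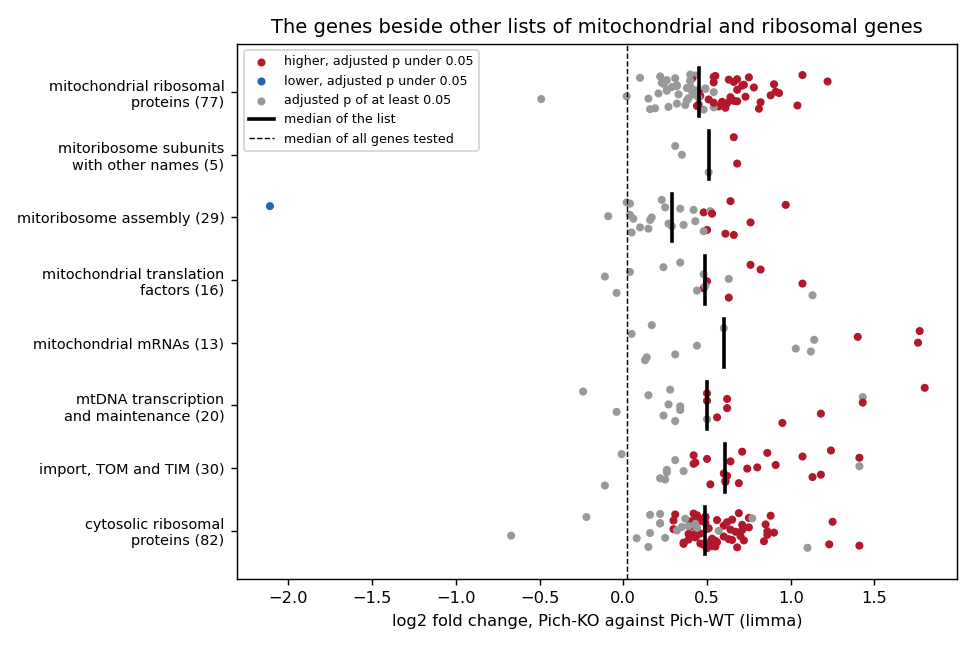
Log2 fold change, Pich-KO against Pich-WT (x axis), of each gene in the 77 members and in 7 other lists (rows, with the number of genes), with red points for genes that rose, blue for those that fell and gray for those that did not pass, black bars for list medians and a dashed line for the median of all genes tested, 0.02. All list medians lie to the right of the dashed line, from 0.29 for assembly to 0.61 for import, and Grsf1 at -2.11 is the single blue point.

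Pich-KO 2, which had the higher member counts, also had the higher neutrophil sum and the lower LSK sum. Total reads on genes ran from 14703215 to 20933919 per library. Ercc6l itself had normalized counts of 1142 and 1232 in the knockouts against 772 and 661. It rose by 0.73 on the log2 scale (limma adjusted p = 0.00887). Since a small deletion leaves nearly all of its message to be counted, this level does not check the labels. Pich-WT 2 had 0 reads on 4 Y-linked genes and 699 on Xist, where the others had at least 1607 and at most 13, so the groups were not matched for sex. Without Pich-WT 2 the median log2 fold change of the members was 0.46.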

How the data were processed

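RNA of sorted fetal liver LSK cells was made into libraries with a TruSeq RNA kit. The deposited table holds a signal for each gene and sample, made by the authors from read counts divided by 1 size factor per sample; 100% of values came out as whole reads within a tolerance of 0.001. The submitters' processing notes name Bowtie 0.12.2 and the builds mm8 and mm9, while coordinates matched GENCODE M21 on GRCm38 (97.8% of genes). The counter, and whether it used strand, are not given in the sources used here. The table's pooled means, fold changes and p-values from the authors' own comparison were not used.

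Values were tested as log2(value + 1) with limma 3.58.1 in R 4.3.3, with a variance trend. Genes whose mean value reached 1 were tested, 32428 in all, and p-values were adjusted after Benjamini and Hochberg. The log2(value + 1) scale understates the fold changes of low genes. Recovered reads went through edgeR 4.0.16 (3097 genes higher, 3436 lower) and DESeq2 1.42.0 as alternatives. On simulated data with the same dispersion, the spread beyond counting noise, for every gene, limma and edgeR were checked and DESeq2 was not. Members and lists were chosen with earlier results of these data known. Named members were the 6 largest and 6 smallest changes past the threshold, the 5 highest levels per kilobase, landmarks of the ribosome and those beside the threshold; of other lists, the extremes, and further genes chosen after their values were seen. Mrpl22, Mrpl39, Mrps25, Mrpl46 and Mrps11 were also named after their values were seen. Mrpl53 was not analysed here.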

Additional observations from a re-analysis of the deposited data

How the results depend on the processing

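Of the 77 members, 37 rose under the settings reported, and between 28 (no filter on the mean) and 54 (edgeR with TMM on recovered reads) under the other settings that kept all samples and either a variance trend or a count model. Across those 9 fits, 28 members passed in each and 22 in none. With limma without the variance trend 0 passed (16 at an unadjusted p under 0.05), as in the whole table, where the calls went from 2459 higher and 3113 lower to 0 and 0. Leaving out 1 sample, the count ranged from 0 to 5, being 5 without Pich-KO 1, and the lone sample was assumed to vary like the other group. The unadjusted count of members with limma was then 25 to 64, and over all genes tested 548 were higher and 1193 lower without Pich-KO 1 and 0 without any of the other samples. The median log2 fold change ranged from 0.38 to 0.57, the latter without Pich-KO 1, and 75 members stayed positive in all 4 of these fits.

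The replicate numbers gave no sign of pairing the samples (correlation of same-numbered deviations 0.048 over 10452 genes). With the number as a replicate block, 47 members were higher and 1, Mrpl52, was lower (limma adjusted p = 0.0463). Scaling to the total moved the members' median to 0.39 and the all genes median log2 fold change from 0.02 to -0.03, and leaving out 1 sample the latter ranged from -0.01 to 0.03. The summed level over all members, scaled with the authors' size factors, a choice made after seeing the data, had a ratio of 1.42 between the groups, against 1.36 in RPM. The range of levels used as a background was also chosen after seeing the data. Each member had at least 292 reads in every sample, and the number of samples, 2 a group, limits the precision.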

Other observations

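Reads on names that resemble the members were few. Mrpl23-ps1, a pseudogene, had normalized counts of 62.2 and 60.2 in the knockout against 57 and 48, and Mrpl48-ps had 14.2 and 21.6 against 14.8 and 30. Mrps36-ps1 and Mrps36-ps2 had fewer than 10 in every sample. The parent genes Mrpl23, Mrpl48 and Mrps36 had levels of 268, 118 and 481 normalized counts per kilobase in the knockout. In the same unit and group, Mrpl23-ps1 had 106, Mrpl48-ps 28.1, Mrps36-ps1 18.3 and Mrps36-ps2 5.37.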
